A study of Mus musculus with 12 samples.

Results

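Dmbt1, Tff2, Wfdc3, Bmp8b and Ly6d encode secreted or surface-anchored proteins, several of them known from mucosal surfaces, and they are described here across mouse livers with and without Mcl1. They were chosen by name, with their low counts in wild-type (WT) livers and higher counts in Mcl1-deleted livers already known, so that rise is what selected them and is not a test result. The 5 symbols matched 5 of the 40551 Ensembl identifiers counted. All 5 were among the 15070 genes with enough counts to be tested. Tff2, Wfdc3 and Bmp8b reached that minimum only in Mcl1-deleted livers, and Dmbt1 in too few other libraries to pass without them. Passing it therefore says nothing further about these genes. Ly6d, Bmp8b and Wfdc3 were higher in Mcl1-deleted livers with and without Sting1, Dmbt1 was high in the Mcl1-deleted livers that had Sting1, and the high value of Tff2 came from 1 library.

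Total RNA was sequenced from 12 livers, 1 library each, in 4 genotypes of 3 livers. WT mice were compared with Mcl1Δhep mice, in which Alb-Cre removes floxed Mcl1, an antiapoptotic gene of the Bcl-2 family, from cells that express albumin, mainly hepatocytes. Sting1-/- mice lack STING, the adaptor that passes the signal of cytosolic DNA on to interferon genes, in the whole body, and Mcl1Δhep Sting1-/- mice were bred by crossing both lines. The study used mice of both sexes. Y-linked genes were expressed only in WT replicates 2 and 3 and in Mcl1Δhep Sting1-/- replicate 1. Sex, as read from these genes, was therefore not balanced between the genotypes, Mcl1Δhep against WT livers included. The WT and Mcl1Δhep livers came from animals of 2 months. Neither the strain background nor the age of the Sting1-/- and Mcl1Δhep Sting1-/- livers was given beside these libraries.

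The proteins act at epithelial borders in different ways. Dmbt1 is a large secreted scavenger receptor of the SRCR family that binds bacteria, is made by ductal and mucosal epithelia and, under the name muclin, by the acinar cells of the mouse pancreas. Tff2 is a trefoil peptide secreted with gastric mucus, where it takes part in repair of the surface epithelium. Wfdc3 carries the four-disulfide WAP fold shared by small secreted protease inhibitors. Bmp8b is a ligand of the BMP branch of the TGF-β superfamily, best known from brown fat and germ cells. Ly6d is a GPI-anchored surface protein of the Ly6/uPAR family found on squamous epithelium and on B cell precursors.

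The libraries held 28826367 to 45266387 counts on genes, and 0 counts in 1 library allow up to 3 counts, or 0.0620 to 0.10 CPM (counts scaled to a common library size with TMM factors). Mcl1 counts were 3142 to 3438 in WT and 790 to 1350 in Mcl1Δhep libraries, and 2691 to 3394 in Sting1-/- and 542 to 949 in Mcl1Δhep Sting1-/- libraries, with no overlap in either pair. Counts on Sting1 were 64 to 96 in WT and 40 to 112 in Sting1-/- libraries, which overlapped, and 116 to 222 in Mcl1Δhep and 57 to 104 in Mcl1Δhep Sting1-/- libraries, which did not. One library stood apart. Mcl1Δhep replicate 3 held a sum of 10870 CPM over 9 pancreatic acinar markers, against 7.26 to 32.5 CPM in the other 11 libraries, and 1480 CPM over 8 skeletal muscle markers, against 0.524 to 8.71 CPM. In that library Cpa1, a digestive carboxypeptidase, had 29908 counts and Acta1, skeletal muscle actin, had 17516, whereas Cpa1 had at most 1 count and Acta1 at most 59 elsewhere. The 8 hepatocyte markers summed to 94569 to 157464 CPM over the 12 libraries. Values of the members that rest on Mcl1Δhep replicate 3 are therefore mostly given with and without it. Values of other genes and of the marker lists include it unless stated.

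**Figure D1:**
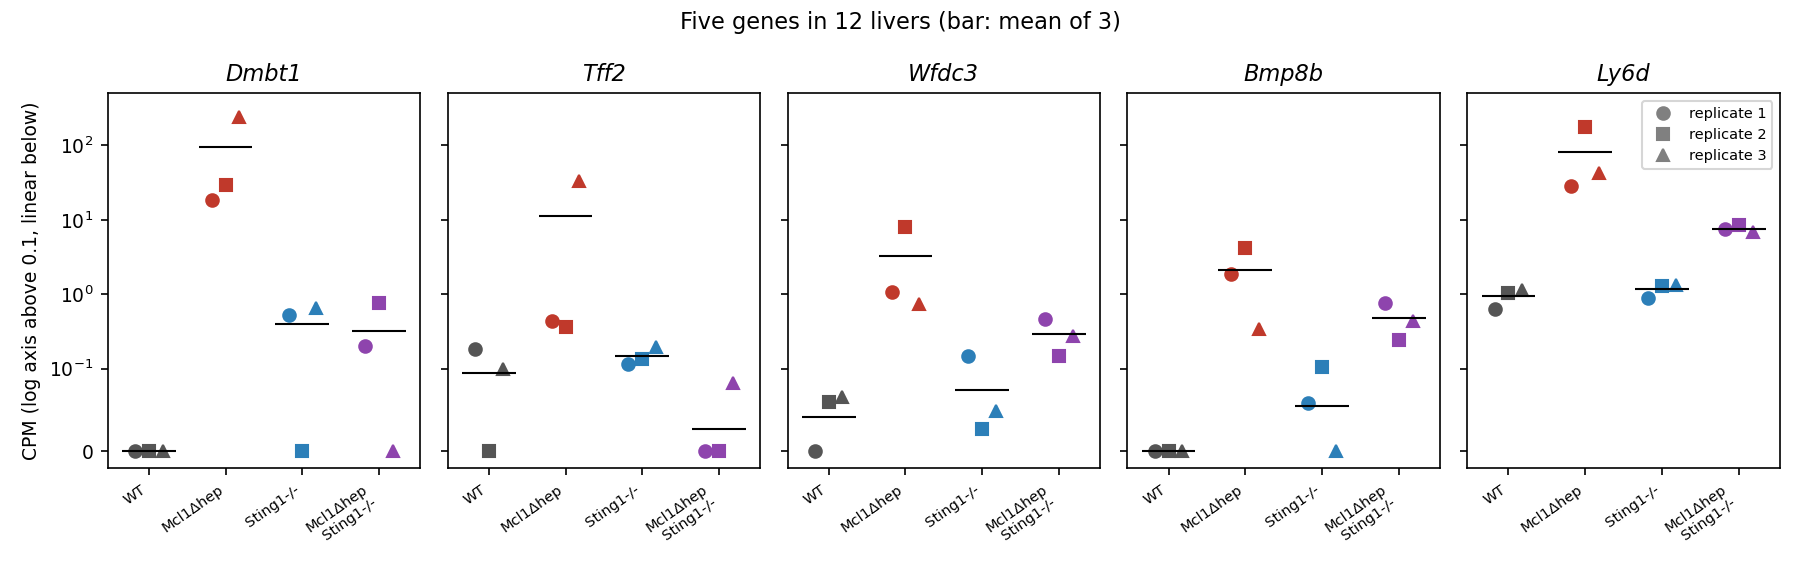
Level of each of the 5 genes in each library, in CPM (log axis above 0.1, linear below), for the 4 genotypes with 3 livers each; points are libraries and bars the mean. Every Mcl1Δhep library lay above every WT library, and in the Mcl1Δhep Sting1-/- livers Ly6d, Bmp8b and Wfdc3 but not Dmbt1 or Tff2 lay above the Sting1-/- livers.

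Ly6d was the member with the steadiest difference. It lies on chromosome 15 (GRCm39, 74633902 to 74635597, minus strand; ENSMUSG00000034634). Its counts were 24, 35 and 34 in WT replicates 1 to 3 and 1389, 5796 and 1366 in Mcl1Δhep replicates 1 to 3. In Sting1-/- livers they were 31, 48 and 55, and in Mcl1Δhep Sting1-/- livers 226, 345 and 251. All Mcl1-deleted livers of either background thus lay above all livers with Mcl1, and the Mcl1Δhep livers lay above the Mcl1Δhep Sting1-/- livers. Pooled over libraries, Ly6d was 82.8-fold higher in Mcl1Δhep than in WT livers (95% interval 67.5 to 103, exact, covering counting error only as do all such intervals below), and 37.5-fold without replicate 2, the highest. It was 6.48-fold higher in Mcl1Δhep Sting1-/- than in Sting1-/- livers (5.39 to 7.83). The Mcl1Δhep Sting1-/- livers ranged over 1.22-fold, the Mcl1Δhep livers over 6.17-fold. Mcl1Δhep replicate 2, where Ly6d was highest, was also the library with the largest share of small structured RNAs, at 2.37%, against 0.283 and 1.36% in replicates 1 and 3, 0.172 to 0.369% in WT, 0.506 to 0.897% in Sting1-/- and 0.431 to 0.532% in Mcl1Δhep Sting1-/- livers. Ly6d was not at zero in WT livers, where it had 0.931 ± 0.262 CPM (SD, n = 3).

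Bmp8b (chromosome 4, 122998923 to 123025892, plus strand; ENSMUSG00000002384) was the ligand of the set and had no count in WT livers. Its counts were 90, 138 and 11 in Mcl1Δhep replicates 1 to 3, 2, 4 and 0 in Sting1-/- livers, and 23, 10 and 16 in Mcl1Δhep Sting1-/- livers. The Mcl1-deleted libraries lay above their controls on both backgrounds, whereas Mcl1Δhep and Mcl1Δhep Sting1-/- libraries overlapped, since Mcl1Δhep replicate 3 was low. Pooled, Bmp8b was at least 71.7-fold higher in Mcl1Δhep than in WT livers, with 3 counts over the WT group as the floor (at least 42.6-fold without replicate 2), and 8.62-fold higher (3.69 to 24.6) in Mcl1Δhep Sting1-/- than in Sting1-/- livers. Bmp8a, its close paralog, had 0 to 4 counts per library. Ppie, which overlaps the gene on the other strand, had 282 to 502 counts in the 12 libraries and did not follow it.

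Wfdc3 (chromosome 2, 164573092 to 164587871, minus strand; ENSMUSG00000076434) moved much like Bmp8b. Its counts were 0, 2 and 2 in WT livers and 52, 259 and 24 in Mcl1Δhep replicates 1 to 3. They were 5, 1 and 2 in Sting1-/- livers and 14, 6 and 10 in Mcl1Δhep Sting1-/- livers. No pair of these groups overlapped except WT with Sting1-/- livers, although only 1 count separated the highest Sting1-/- from the lowest Mcl1Δhep Sting1-/- library. Pooled, Wfdc3 was 75.4-fold higher in Mcl1Δhep than in WT livers (29.2 to 278), 24.1-fold without replicate 2, and 3.96-fold higher (1.77 to 9.99) in Mcl1Δhep Sting1-/- than in Sting1-/- livers. Like Ly6d, both genes were highest in Mcl1Δhep replicate 2, the library with the most small structured RNA, and of the Mcl1Δhep livers they were lowest in replicate 3. The part of that RNA share in the values of the 3 genes was not tested.

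Because Bmp8b and Wfdc3 followed each other across the libraries, the sequence upstream of each is shown from RefSeq (table of GRCm38.p6, matched to GRCm39), cut where an annotated exon begins. The Bmp8b stretch is chr4:122998704-122998922 on the plus strand. The Wfdc3 stretch is chr2:164585233-164585437 on the minus strand, before the RefSeq start, and lies inside longer GENCODE transcripts of the gene. Capitals mark the motifs found, a GC box and a CCAAT box, both on the reverse strand.
Bmp8b: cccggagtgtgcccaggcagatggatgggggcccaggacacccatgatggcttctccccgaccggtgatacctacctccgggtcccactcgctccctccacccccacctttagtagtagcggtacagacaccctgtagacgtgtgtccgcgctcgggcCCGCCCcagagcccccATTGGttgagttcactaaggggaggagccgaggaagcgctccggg
Wfdc3: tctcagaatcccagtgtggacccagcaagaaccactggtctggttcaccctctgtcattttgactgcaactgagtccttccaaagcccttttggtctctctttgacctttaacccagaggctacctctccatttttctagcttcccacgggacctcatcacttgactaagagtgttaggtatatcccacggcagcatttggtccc
The 250 bases before each start were searched on both strands for the TATA box (read as TATAAA), the CCAAT box, the GC box (read as GGGCGG), the AP-1 motif (read as TGANTCA), the STAT motif (read as TTCNNNGAA) and the NF-kB consensus. No match overlapped another. The Bmp8b window held the GC box 92 bases and the CCAAT box 76 bases before the start, motifs that 32.7% and 33.8% of 32851 promoter windows hold. The Wfdc3 window held none of the 6. The windows also differed in base composition, with 65.2% G and C for Bmp8b and 49.6% for Wfdc3, against a median of 52.4%.

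Dmbt1 (chromosome 7, 130633776 to 130723357, plus strand; ENSMUSG00000047517), the scavenger receptor, behaved differently on the 2 backgrounds. It had no count in any WT liver and 890, 969 and 7675 counts in Mcl1Δhep replicates 1 to 3. In Sting1-/- livers its counts were 18, 0 and 27, and in Mcl1Δhep Sting1-/- livers 6, 31 and 0. The Mcl1Δhep livers therefore stood alone, and the Mcl1Δhep Sting1-/- and Sting1-/- livers overlapped, with a pooled ratio of 0.868 (0.546 to 1.37). Dmbt1 was at least 2862-fold higher in Mcl1Δhep than in WT livers, and at least 779-fold without replicate 3, which held 83.2% of the group's summed CPM. In replicates 1 and 2 Dmbt1 was at 18.4 and 29.6 CPM. The pancreatic markers there summed to 7.26 and 12.1 CPM. Most of that was Cela1, at 6.85 and 11.5 CPM, which WT livers also had at 13.3 to 30.9 CPM. The part of pancreatic cells in these Dmbt1 values was not tested. Fgfr2, annotated across Dmbt1 on the other strand, had 1319 to 4908 counts in the Mcl1Δhep libraries, lowest in replicate 3 where Dmbt1 was highest.

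Tff2 (chromosome 17, 31360023 to 31363262, minus strand; ENSMUSG00000024028), the trefoil peptide, rested on 1 library. Its counts were 7, 0 and 3 in WT livers and 21, 12 and 1067 in Mcl1Δhep replicates 1 to 3. They were 4, 5 and 8 in Sting1-/- livers and 0, 0 and 3 in Mcl1Δhep Sting1-/- livers. The 3 Mcl1Δhep libraries lay above all others, but replicates 1 and 2 only narrowly, and 97.6% of the group's summed CPM was in replicate 3, the library with pancreatic and muscle markers. Pooled, Tff2 was 99.1-fold higher in Mcl1Δhep than in WT livers (53.7 to 207) and 4.15-fold (2.0 to 9.44) without replicate 3. With STING absent, the Mcl1-deleted livers lay below their controls, at 0.186-fold (0.0350 to 0.644) on 3 against 17 counts. The part of the pancreatic and muscle signal in the Tff2 and Dmbt1 values of replicate 3 was not tested. In bulk RNA, more cells of a type and more RNA per cell cannot be told apart.

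**Figure D2:**
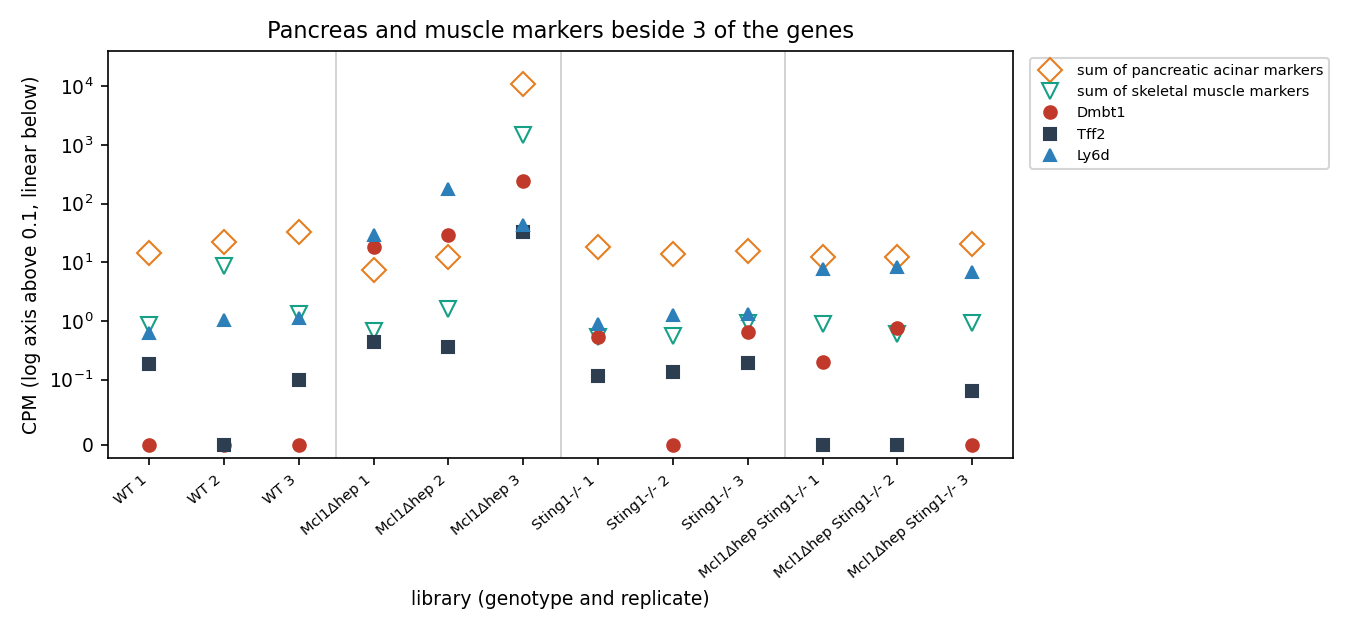
Summed CPM of the pancreatic acinar and skeletal muscle markers beside the CPM of Dmbt1, Tff2 and Ly6d in each library (log axis above 0.1, linear below). Mcl1Δhep replicate 3 was the only library with both marker sums above 1000 CPM, and it held the highest Tff2 and Dmbt1, whereas Ly6d was highest in replicate 2.

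A stated limit on low WT and high Mcl1Δhep levels was then set. It uses the values that had already chosen the members, so meeting or missing it is a description and no test of the label. Over all identifiers, 68 (0.168%) were under 0.5 CPM in every WT library and at least 1 CPM in every Mcl1Δhep library, and 4 met the reverse. Dmbt1 was the only member among the 68, although with STING absent its Mcl1-deleted livers overlapped their controls. Bmp8b and Wfdc3 missed the limits with 0.342 and 0.747 CPM in Mcl1Δhep replicate 3, Tff2 with 0.434 and 0.367 CPM in replicates 1 and 2, and Ly6d because WT livers already had 0.633 to 1.12 CPM. With STING absent, 12 identifiers met the same limits, none of them a member, and 4 met them on both backgrounds, namely Ttk, Cdc6, Kif18b and Cdca5, which act in cell division.

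Per unit of length, in TPM (counts divided by exon length and then scaled to a common sum), the members were far apart. In Mcl1Δhep livers Ly6d had 136, 622 and 157 TPM in replicates 1 to 3, the highest of the members in replicates 1 and 2. Dmbt1 had 9.87, 11.8 and 100 TPM, and Tff2 had 3.05, 1.91 and 182 TPM, which put Tff2 above Ly6d in replicate 3, so the order depended on the library. Wfdc3 had 0.806 to 8.10 TPM and Bmp8b 0.189 to 2.21 TPM, and their ranges overlapped. In Mcl1Δhep Sting1-/- livers Ly6d had 28.4 to 38.4 TPM and every other member stayed under 1 TPM.

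The Mcl1Δhep minus WT differences fitted by edgeR's quasi-likelihood model, on the log2 scale with a prior count of 2, were 10.78 for Dmbt1 (SE 1.65), 6.41 for Ly6d (SE 0.66), 6.24 for Tff2 (SE 1.58), 5.32 for Bmp8b (SE 0.92) and 5.11 for Wfdc3 (SE 0.94). Without replicate 3 the Tff2 difference was 1.60 and that of Dmbt1 8.79, and without replicate 2 the differences of Ly6d, Bmp8b and Wfdc3 were 5.20, 4.43 and 3.37. They depend on the prior count where WT livers had no counts and are descriptions. In this comparison 10.8% of tested genes were called higher at an adjusted p under 0.05, and 15.9% had all Mcl1Δhep above all WT libraries, as all 5 members did. With STING absent, the corresponding differences, Mcl1Δhep Sting1-/- minus Sting1-/-, were 2.64 for Ly6d (SE 0.57), 2.29 for Bmp8b (SE 0.83), 1.44 for Wfdc3 (SE 0.84), −0.21 for Dmbt1 (SE 1.35) and −1.30 for Tff2 (SE 1.52). The sign of the Dmbt1 value was not stable, at 0.32 without Sting1-/- replicate 3 and 0.33 without Mcl1Δhep Sting1-/- replicate 3. There 0.677% of tested genes were called higher (0.803% in either direction), 11.5% did not overlap upward, as 3 of the 5 members did not, and 10.8% did not overlap downward, as Tff2 did not. Both are given without a test, as the members were chosen on this pattern.

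Mcl1Δhep livers with and without Sting1 were compared next. All 5 members were lower in Mcl1Δhep Sting1-/- livers, but they had been chosen for high values in the Mcl1Δhep libraries, which favors that direction, so their values here are a description with no test. Pooled, Mcl1Δhep livers had 245-fold more Dmbt1 (66.7-fold without replicate 3), 348-fold more Tff2 on 3 counts in the other group (119 to 1692; 14.6-fold without replicate 3), 10.6-fold more Wfdc3 (3.38-fold without replicate 2), 9.88-fold more Ly6d (4.48-fold without replicate 2) and 4.63-fold more Bmp8b (2.75-fold without replicate 2). In 4 of the 5 the groups did not overlap, as in 8.91% of all tested genes in that direction, from which nothing is read given the choice of members.

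The fitted differences, Mcl1Δhep Sting1-/- minus Mcl1Δhep, were −7.96 for Dmbt1 (SE 1.37), −7.12 for Tff2 (SE 1.67), −3.44 for Ly6d (SE 0.56), −3.26 for Wfdc3 (SE 0.83) and −2.05 for Bmp8b (SE 0.77). Without Mcl1Δhep replicate 3 the Tff2 difference was −2.47 and that of Dmbt1 −5.96, and without replicate 2 those of Wfdc3, Bmp8b and Ly6d were −1.50, −1.15 and −2.23. Over all genes, edgeR's quasi-likelihood test called 0% at an adjusted p under 0.05 in this comparison, with 3098 genes, 20.6%, at an unadjusted p under 0.05. The count turned on the tool and on 1 library, as DESeq2 called 681 genes and edgeR without Mcl1Δhep replicate 1 called 3108.

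The effect of Mcl1 deletion with Sting1 absent minus that with Sting1 present, also a description since it holds the WT and Mcl1Δhep libraries on which the members were chosen, was −10.99 for Dmbt1 (SE 2.24), −7.54 for Tff2 (SE 2.57), −3.76 for Ly6d (SE 0.82), −3.67 for Wfdc3 (SE 1.57) and −3.03 for Bmp8b (SE 1.26). Without Mcl1Δhep replicate 3 the value of Tff2 was −2.90, and without replicate 2 that of Wfdc3 was −1.92. Over all genes, edgeR called 0% here, with 2165 (14.4%) at an unadjusted p under 0.05. DESeq2 called 170 genes, and edgeR without Mcl1Δhep replicate 1 called 1574.

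**Figure D3:**
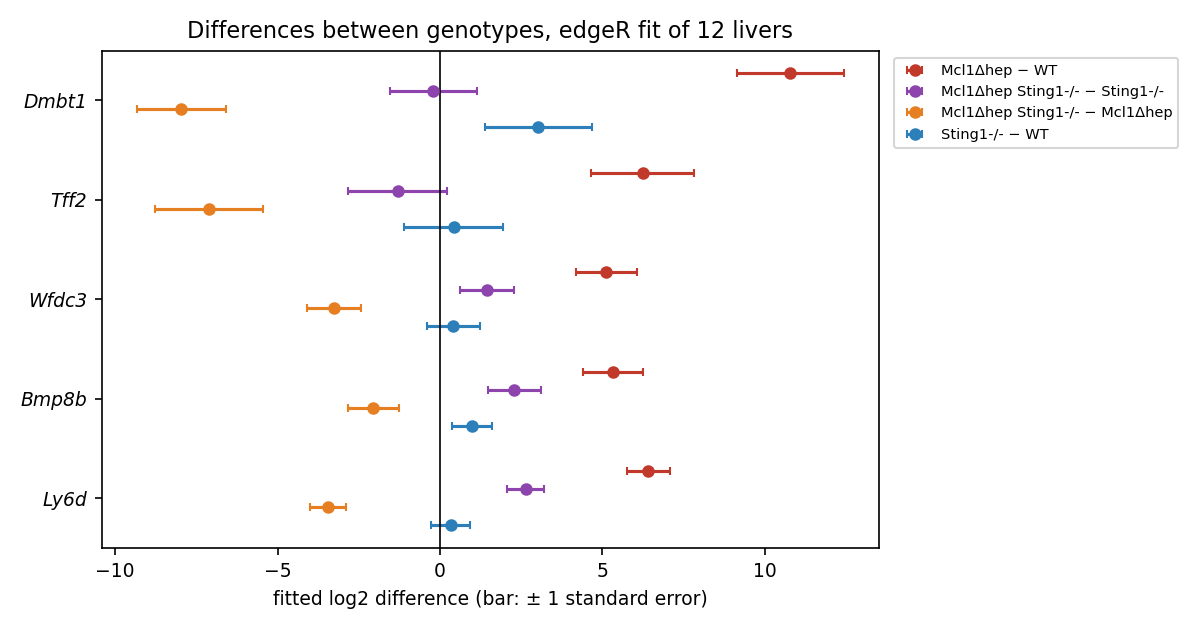
Fitted log2 differences of the 5 genes, with bars of 1 standard error, for Mcl1 deletion with Sting1 present, Mcl1 deletion with Sting1 absent, Mcl1Δhep Sting1-/- against Mcl1Δhep livers, and Sting1-/- against WT livers. With Sting1 present all 5 values lay above 5, although Tff2 was at 1.60 without Mcl1Δhep replicate 3, and with Sting1 absent they ran from −1.30 for Tff2 to 2.64 for Ly6d.

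Sting1-/- livers were also set against WT livers, whose libraries had served to choose the genes. Tff2, Wfdc3 and Bmp8b had at most 8 counts per library in both groups and passed the filter only through Mcl1-deleted livers. Dmbt1, with no count in WT livers, did not pass without the Mcl1-deleted livers either. The values of all 5 members are therefore descriptions with no test, and no lack of an effect is read from them. The Sting1-/- minus WT differences were 3.03 for Dmbt1 (SE 1.65), 0.98 for Bmp8b (SE 0.60), 0.42 for Tff2 (SE 1.52), 0.41 for Wfdc3 (SE 0.81) and 0.33 for Ly6d (SE 0.60). The groups overlapped for all 5. Over all genes, edgeR called 0 in this comparison (0%), with 821 (5.45%) at an unadjusted p under 0.05, and DESeq2 called 51. Libraries did not overlap upward for 7.09% of tested genes. Dmbt1 had 45 counts in Sting1-/- against 0 in WT livers, at least 13.5-fold, in 2 of 3 libraries. Ly6d was 1.29-fold higher in Sting1-/- livers (0.986 to 1.70).

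The other genes of each member's family or pathway were counted on lists of 158 names, chosen with earlier results of these data known, of which 84 genes were tested. In Mcl1Δhep against WT livers 20 of them rose and 9 fell in edgeR's test, 34.5% against 20.2% of all tested genes; without Mcl1Δhep replicate 3, 25 were called in all, and 11 without WT replicate 2 and 14 without Mcl1Δhep replicate 2. With Y-linked expression as a covariate, which 2 of 3 WT and no Mcl1Δhep libraries had, 18 were called, as with only these groups in the fit. With STING absent, and in Mcl1Δhep Sting1-/- against Mcl1Δhep livers, 0 of the 84 were called by edgeR, with 20 and 24 at an unadjusted p under 0.05. DESeq2 called 2 in the former.

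Among trefoil peptides and mucins, 5 of 23 matched genes were tested, with 1 higher and 1 lower. Pigr, which carries antibodies across epithelia into bile, fell by 1.06 on the log2 scale (SE 0.28, edgeR adjusted p = 0.0237), from 1489 ± 308 to 713 ± 321 CPM (SD, n = 3 each). Muc1, a membrane mucin, rose by 1.47 (adjusted p = 0.0176) at a low level. The median log2 difference of the list was 1.34, against −0.00 over all genes. The middle gene was Fcgbp, named for that place, which was not called (edgeR adjusted p = 0.115). It had a mean of 0.165 CPM in WT and 0.503 CPM in Mcl1Δhep livers, so this median rests on low counts.

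The WAP list, to which Wfdc3 belongs, had 7 of 23 genes tested, of which 3 rose and 0 fell, with a median of 1.19. Slpi, an inhibitor of neutrophil elastase made by mucosal epithelia, rose by 2.55 (SE 0.58, edgeR adjusted p = 0.0131), from 2.36 ± 0.632 to 14.0 ± 10.1 CPM (SD, n = 3 each). Wfdc17 rose by 1.19 (adjusted p = 0.0233). Wfdc15b rose by 4.05 (adjusted p = 0.0072), from 0.129 to 3.06 CPM on average, and was named after its value was seen because it is the remaining called gene.

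Of the SRCR family of Dmbt1, 15 of 17 genes were tested, of which 5 rose and 1 fell, with a median of 0.62. The named members that rose were Marco, a macrophage scavenger receptor, by 2.08 (edgeR adjusted p = 0.0169), Loxl2, a collagen cross-linking enzyme, by 0.94 (adjusted p = 0.0137), and Cd5l, a soluble macrophage protein, by 0.67 (adjusted p = 0.0273). Cd163, the haptoglobin-hemoglobin receptor of resident macrophages, fell by 2.05 (adjusted p = 0.0015). The genes named here are thus known from macrophages and from collagen cross-linking.

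The Ly6/uPAR list had 13 of 41 genes tested, of which 4 rose and 0 fell, with a median of 0.39. Plaur, the urokinase receptor, rose by 2.15 (SE 0.28, edgeR adjusted p = 0.0013), from 0.580 ± 0.0229 to 2.75 ± 0.291 CPM (SD, n = 3 each). Ly6c2, a marker of inflammatory monocytes, rose by 1.78 (adjusted p = 0.0101).

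The BMP pathway, with 44 of 52 genes tested, had 7 that rose and 7 that fell, with a median of −0.17. Of the target genes, Id4 rose by 2.49 (edgeR adjusted p = 0.0048) and Id1 by 1.88 (adjusted p = 0.0088), both encoding inhibitors of helix-loop-helix factors. Bmper, an extracellular regulator of BMPs, rose by 2.74 (adjusted p = 0.0076). The receptors Acvr2b and Acvr1b fell by 1.10 (edgeR adjusted p = 0.0184) and 0.82 (adjusted p = 0.0412).

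**Figure D4:**
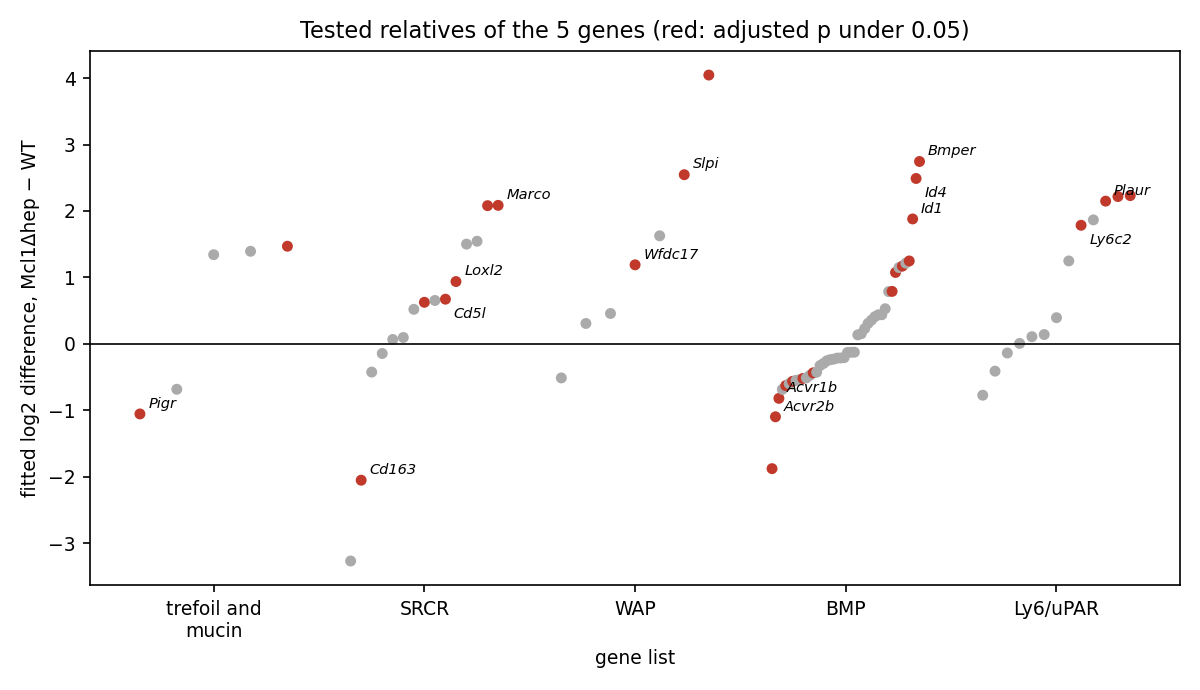
Fitted log2 differences, Mcl1Δhep minus WT, of the tested genes of each family or pathway list, without the 5 members; red points had an edgeR adjusted p under 0.05 and the named genes are labelled. Rises outnumbered falls among called genes of the SRCR, WAP and Ly6/uPAR lists, and the BMP list was even at 7 and 7.

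The neighbors of the members on the chromosome were mostly at low counts or smaller differences. The nearest protein-coding gene on each side was below 3 counts in every library for 5 of the 10 neighbors, and none of the other 5 passed edgeR's test in Mcl1Δhep against WT livers. Dnttip1, which starts 8 bases from Wfdc3 on the other strand, differed by 0.40 (SE 0.24, adjusted p = 0.251). Tff3, the trefoil peptide next to Tff2, had counts of 26, 364 and 234 in WT livers and 130, 1495 and 71 in Mcl1Δhep replicates 1 to 3. It was highest in Mcl1Δhep Sting1-/- replicate 1 with 3469 counts, against 10 and 37 in replicates 2 and 3, so Tff3 and Tff2 peaked in different libraries (Mcl1Δhep minus WT 1.39, SE 1.68, adjusted p = 0.577). Lynx1, a Ly6-type gene beside Ly6d, differed by 1.25 (SE 0.45, adjusted p = 0.0685), from 1.70 ± 0.856 to 4.11 ± 2.66 CPM (SD, n = 3 each), and had 1.29 ± 0.134 CPM in Sting1-/- and 1.92 ± 0.604 CPM in Mcl1Δhep Sting1-/- livers. With Mcl1 deleted these are the directions of Ly6d, while in Sting1-/- minus WT livers Lynx1 was at −0.40 and Ly6d at 0.33.

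Likeness of pattern was measured over the 12 libraries as the root mean square difference of centered log2(CPM + 0.5) values, in which 0 means the same profile. The tested genes nearest to Tff2 were Cmya5 (0.324) and Ryr1 (0.356), genes of skeletal muscle, and Klk1 (0.362), tissue kallikrein. All 3 were high in Mcl1Δhep replicate 3 alone, Cmya5 with 952 counts there against 1 to 15 elsewhere. Those nearest to Wfdc3 were Timp1 (0.329), an inhibitor of matrix metalloproteinases, Sprr1a (0.332), a cornified envelope protein, and Tes (0.359), a focal adhesion protein, all highest in Mcl1Δhep replicate 2. Nearest to Bmp8b were Pfkp (0.343), a phosphofructokinase, Fam83a (0.365) and Vcan (0.372), a matrix proteoglycan. Wfdc3 and Bmp8b were each the 6th nearest gene to the other (0.385).

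Ly6d and Dmbt1 were looked at in the same way. Nearest to Ly6d were Gpnmb (0.772), a glycoprotein of lipid-laden macrophages, Mmp12 (0.996), macrophage elastase, and Mmp13 (0.996), a collagenase. Gpnmb had 8 to 40 counts in WT, 544 to 1308 in Mcl1Δhep, 3 to 13 in Sting1-/- and 130 to 385 in Mcl1Δhep Sting1-/- libraries, the same order of groups as Ly6d apart from the Sting1-/- livers. Nearest to Dmbt1 were H19 (1.47), an imprinted noncoding RNA, Ly6d itself (1.61) and Klk1 (1.77). At low levels log2(CPM + 0.5) varies little, so the distances of Tff2, Wfdc3 and Bmp8b cannot be set beside those of Ly6d and Dmbt1.

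Markers of gastric, intestinal and squamous epithelium were looked at for the same livers. Of 9 gastric markers, Gkn1, Gkn2 and Cblif had no count in any library, Tff1 had 0 to 2 counts, and Muc6 had 13, 1 and 4 counts in Mcl1Δhep livers and none elsewhere. The sum of the list was 0.219 to 7.81 CPM over the 12 libraries, with the highest value in Mcl1Δhep Sting1-/- replicate 1 and most of it from Atp4a. Of 8 intestinal markers, Cdx1, Cdx2 and Sis had no count in any library, while Fabp2, a fatty acid binding protein, had 1372 to 2584 counts in all 12 and, with Tff3, made up most of the sum of 38.2 to 170 CPM. That sum was 44.9 to 125 CPM in Mcl1Δhep and 44.9 to 64.4 CPM in WT livers, which overlapped. Of 8 squamous markers, Krt13, Krt6a and Dsg3 had no count in any library, and Sprr1a, at 55, 149 and 24 counts in Mcl1Δhep livers and 4, 0 and 11 in WT livers, made up most of the 1.06 to 4.89 CPM that the list reached in Mcl1Δhep livers. The squamous sum was 0.207 to 0.396 CPM in WT, 0.0265 to 0.0724 CPM in Sting1-/- and 0.191 to 0.534 CPM in Mcl1Δhep Sting1-/- livers. It was higher with Mcl1 deleted on both backgrounds with no overlap, but mostly through Sprr1a. That gene had 12, 13 and 6 counts in Mcl1Δhep Sting1-/- and 0, 0 and 2 in Sting1-/- livers. Krt4 had 9, 4 and 0 counts in WT and 1, 2 and 5 in Mcl1Δhep livers. The 1 marker with enough counts to be tested was called higher by edgeR in Mcl1Δhep against WT livers. The part of such cells in the members' counts was not tested.

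Of the cell types a liver holds, biliary epithelium had marker sums of 84.8 to 108 CPM in Mcl1Δhep against 48.1 to 81.8 CPM in WT livers, with no overlap, and 0 of 7 tested markers called by edgeR. Prom1, a progenitor cell marker, had 13.8, 0.949 and 1.29 CPM in WT and 56.6, 45.9 and 16.9 CPM in Mcl1Δhep replicates 1 to 3. The gap between the sums rested on Prom1, as every other gene of the list, Spp1 and the biliary keratin Krt19 included, overlapped between these groups. Prom1 was also lowest in the libraries with Y-linked expression, with 4.07 CPM in Mcl1Δhep Sting1-/- replicate 1 and at least 5.67 CPM in libraries without it. The part of sex in these values was not tested. In Mcl1Δhep Sting1-/- livers the sum was 43.4 to 92.3 CPM, which overlapped the 48.6 to 61.7 CPM of Sting1-/- livers, while Ly6d, Bmp8b and Wfdc3 did not overlap there. Krt19 was at 1.61, 2.75 and 2.64 CPM in Mcl1Δhep and 1.85, 1.72 and 1.25 CPM in WT livers. The B cell markers, 7 genes, summed to 10.2 to 24.2 CPM in Mcl1Δhep and 15.0 to 49.4 CPM in WT livers, which overlapped. The brown fat markers, 5 genes, summed to 7.28 to 22.1 CPM in Mcl1Δhep against 9.89 to 139 CPM in WT livers. Elovl3 made up most of the high WT sums, with 3572 and 4054 counts in WT replicates 2 and 3. It had 7184 counts in Mcl1Δhep Sting1-/- replicate 1 and 3 to 265 elsewhere, so it was high in the libraries with Y-linked expression. Ucp1, the defining brown fat gene, had no count in WT and Sting1-/- livers. Its counts were 0, 0 and 96 in Mcl1Δhep and 13, 35 and 0 in Mcl1Δhep Sting1-/- livers. The part of biliary, B and brown fat cells in the members' counts was not tested.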

How the data were processed

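Total RNA-seq counts of 12 mouse livers were used. Per library, the authors deposited unnormalized read counts for each Ensembl gene. The submitters' processing notes name STAR, featureCounts and GRCm39; versions and the use of strand are not given in the sources used here. Groups and replicate numbers came from the labels. The 5 members and all gene lists were chosen with earlier results of these data known.

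All 12 libraries were fitted in edgeR 4.0.16 (TMM, filterByExpr by genotype, glmQLFit, glmQLFTest, prior count 2, common dispersion 0.0699) in R 4.3.3, with Benjamini-Hochberg adjustment over 15070 genes and a threshold of 0.05. The p-values measure the spread between livers. Tests of the members that were planned for comparisons holding the WT or Mcl1Δhep libraries are not used, since those libraries chose them. SE is the log2 difference divided by the root of the F statistic. Pooled ratios compare summed counts per summed effective library size, with exact conditional 95% intervals. TPM used GENCODE vM39 exon lengths. Named genes were the members, Mcl1, Sting1, up to 3 called genes with the largest rise and 3 with the largest fall per list at a mean of at least 1 CPM, the nearest neighbors, and the 3 nearest profiles per member. One gene that this rule names is not reported here. DESeq2 1.42.0, limma 3.58.1 (loaded by edgeR), pandas 2.3.3, numpy 2.4.6 and Python 3.11.15 were used, with figures from matplotlib 3.10.9. The edgeR and DESeq2 steps were tested on simulated data. No replicate pair was a duplicate (chi-square over degrees of freedom 40.1 to 290). Promoters of Dmbt1, Tff2 and Ly6d and human samples were not analysed here.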

Additional observations from a re-analysis of the deposited data

How the results depend on the processing

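Besides the fit reported, other size factors (RLE), no filter, DESeq2, only the groups compared, a replicate block, a Y-linked covariate (3 libraries expressed Y-linked genes, WT replicates 2 and 3 and Mcl1Δhep Sting1-/- replicate 1) and leaving out each of the 12 libraries were tried. Genes called between Mcl1Δhep and WT livers were 1178 with only the groups compared and 1531 with the Y-linked covariate, and 18 family genes were called under each. Without 1 library they were 1233 to 5232, and 11 to 41 family genes. Between Mcl1Δhep Sting1-/- and Sting1-/- livers DESeq2 called 461 (2 family genes), only the groups compared 17, the Y-linked covariate 45, and the fits without 1 library 1 to 249. Between Mcl1Δhep Sting1-/- and Mcl1Δhep livers DESeq2 called 681, the Y-linked covariate 1, and the fits without 1 library 0 to 3108. Between Sting1-/- and WT livers DESeq2 called 51, only the groups compared 2, and the fits without 1 library 0 to 22. For the difference between backgrounds DESeq2 called 170 and the fits without 1 library 0 to 1574.

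Of the members, DESeq2 gave −8.26 for Dmbt1, −3.47 for Wfdc3 and −3.45 for Ly6d in Mcl1Δhep Sting1-/- against Mcl1Δhep livers, and −14.43 for Dmbt1 and −3.78 for Ly6d between backgrounds, with adjusted p-values under 0.05 that edgeR did not give; it gave no adjusted p for Tff2. These comparisons hold the libraries that chose the members, so no call of a member is taken from them. Leaving out 1 library gave −9.35 to −5.96 for Dmbt1, −7.72 to −2.47 for Tff2, −3.72 to −1.50 for Wfdc3 and −3.84 to −2.23 for Ly6d in the first, and −12.36 to −9.0 for Dmbt1, −8.14 to −2.90 for Tff2 and −4.17 to −2.56 for Ly6d in the second. The signs of 3 differences turned. In Sting1-/- against WT livers, Tff2 went to −0.17 with the Y-linked covariate and Wfdc3 to −0.035 without Sting1-/- replicate 1 (−0.035 to 0.65 over the fits without 1 library). In Mcl1Δhep Sting1-/- against Sting1-/- livers, Dmbt1 went from −0.21 to 0.12 with the replicate block, 0.32 without Sting1-/- replicate 3 and 0.33 without Mcl1Δhep Sting1-/- replicate 3. The cause of these changes was not tested.

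Same-numbered libraries mostly did not deviate together (18 pairs, r from −0.59 to 0.32, 3 over 0.1). No pairing by number was seen, but with 3 livers a group this check cannot exclude one. With the replicate block 2591 genes were called between Mcl1Δhep and WT livers, 129 between Mcl1Δhep Sting1-/- and Sting1-/- livers and 0 between Mcl1Δhep Sting1-/- and Mcl1Δhep livers. With 3 livers a group and 0 to 35 counts per WT library, depth limits the fold changes of Dmbt1 and Bmp8b to lower bounds.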
